A study of Bos taurus with 20 samples.

Results

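The cattle miRNAs with the highest catalogue numbers were followed in bull spermatozoa. These were all rows of the deposited miRNA table named bta-miR-N with N of 11000 or more. The rule uses the name alone, and was set with earlier results of these data known. There were 97 such rows among 1029 miRNAs, with numbers from 11971 to 12064. The highest number just outside the rule belonged to bta-miR-10225a and bta-miR-10225b, with 3 reads and 1 read in all libraries together. The lowest number inside it was bta-miR-11971, with 5 reads in 4 libraries.

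A miRNA is a short RNA cut from a hairpin precursor, which guides Argonaute proteins to messenger RNAs that carry a match to its seed and lowers their translation or stability. miRBase numbers miRNAs roughly in the order in which they were submitted, so that high numbers mark late entries, most of which have little known function. Ripe spermatozoa make almost no new RNA, and the small RNAs they carry are left from spermatogenesis or taken up during passage through the epididymis.

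The libraries came from frozen-thawed semen of mature Holstein-Friesian bulls used in artificial insemination, 10 of high fertility (HF) and 10 of low fertility (LF). The groups were set by a fertility score adjusted with an animal statistical model. There was 1 library per bull, made from RNA of straws pooled over several ejaculates after lysis of somatic cells, so that ejaculates of a bull cannot be told apart. Neither group was treated, and no age or batch of a bull was used here. Values are normalised counts, which are reads scaled to library size (CPM) and corrected for composition (TMM), and whole reads were recovered from them. The recovered depth was 103204 to 3097581 reads in HF and 310186 to 1640178 in LF, a 30.0-fold range over all libraries. The sperm miRNA list (bta-miR-34b, bta-miR-34c, the bta-miR-449 family and bta-miR-100) summed to normalised counts of 290735 to 692084 per library, the highest of the marker lists in every library. Most of this sum was bta-miR-100 alone, at 249855 to 614881, so that the rank of the list is no measure of sperm purity.

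Most of these miRNAs were scarce or not seen. Of the 97, 57 (58.8%) had at least 1 read in some library and 40 (41.2%) had none in 23350622 reads, where 3 reads would be 0.128 CPM. Of the other 932 miRNAs in the table, 27.7% had no read. Only 10 members (10.3%) were counted in all 20 libraries, against 30.6% of the other miRNAs. A further 22 were counted in 6 to 19 libraries and 25 in 1 to 5. The 57 included 28 with fewer than 10 reads in all libraries together, of which 8 rested on a single read. With a limit of 3 reads in a library, 34 members were counted. Between the groups, 46 members were counted in both, 5 in HF alone and 6 in LF alone. The members counted in a single group had at most 4 reads in all, so that their absence from the other group was not detectable at this depth. Intervals and limits here cover counting error only.

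The number of members counted in a library went with its depth. HF libraries held 27.5 ± 6.04 members (SD, n = 10; 14 to 36) and LF libraries 27.9 ± 3.07 (n = 10; 23 to 33), so the groups overlapped over nearly their whole range. HF replicate 17, the shallowest library, held 14, and each other HF library held 25 or more. If every library had been as shallow as that one, 14.5 ± 1.11 members would be expected in HF and 15.1 ± 0.478 in LF. HF replicate 17 is already at that depth, so its own 14 is part of the HF mean. The lowest and highest expected numbers came from other libraries, 13.4 in HF replicate 2 and 16.7 in HF replicate 9, and 14 lies between them. In HF replicate 17, 3 reads correspond to a normalised count of 27.6, and 9 of the 22 members that passed the filter on low values were at 0 there.

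**Figure D1:**
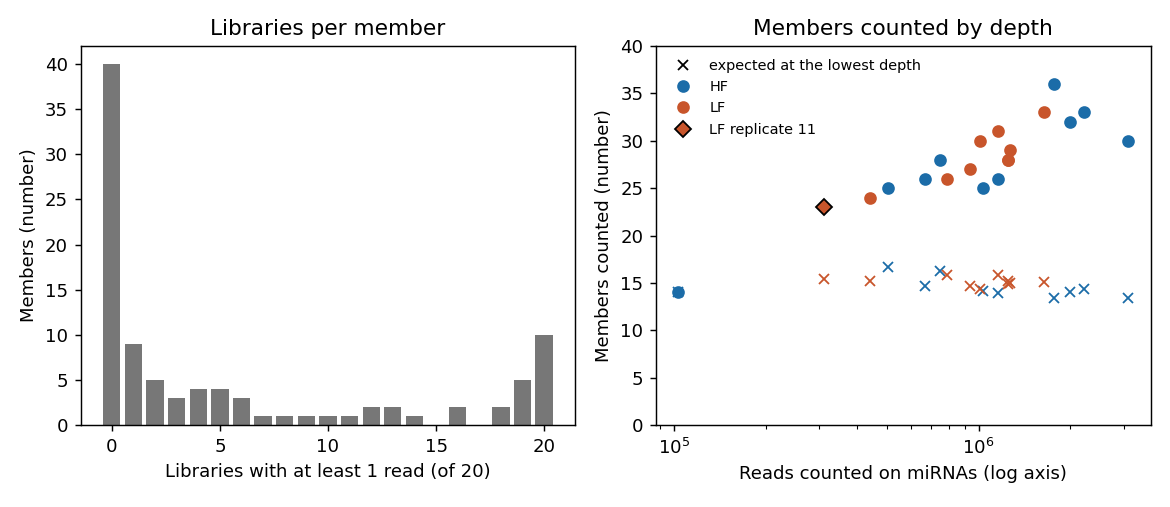
Left, number of libraries (x axis, 0 to 20) in which each of the 97 members had at least 1 read, with the number of members on the y axis. Right, members counted in each library (circles, HF blue and LF orange, LF replicate 11 a diamond) and the number expected at 103203 reads (crosses), against reads counted on miRNAs on a log axis. The tallest bar is the 40 members with no read, and the crosses lie between 13.4 and 16.7.

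A few members held nearly all of the signal. Mean normalised counts over the 20 libraries were above 100 for 4 members, 10 to 100 for 8, and 1 to 10 for 13. The 12 most abundant held a median of 98.6% (97.3% to 99.9%) of the members' summed level in a library, and the first 3 a median of 91.1% (84.2% to 99.0%). Mature sequences were not used here, so seeds were not compared.

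bta-miR-11987 was the most abundant, with rank 24 of all miRNAs by mean level. In HF its lowest, median and highest normalised counts were 1335, 2316 and 5941, and in LF 1604, 3781 and 52222. LF replicate 11 stood at the top, 7.58-fold above the next library, LF replicate 4, at 6891. The other LF libraries lay either between 5544 and 6891 (4 libraries) or between 1604 and 2018 (5 libraries), and the HF values were spread over the same span. It was counted with 190 to 16907 reads, and its precursor gene lies in no other annotated gene, next to ADGRB3, an adhesion G protein-coupled receptor (gene order from RefSeq, assembly ARS-UCD2.0).

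bta-miR-11980 came next, at rank 64. Its normalised counts were 176, 391 and 1178 (lowest, median and highest) in HF and 218, 566 and 7243 in LF. LF replicate 11 was again the highest, 6.15-fold above HF replicate 9. Its precursor gene overlaps BRAT1, which encodes a BRCA1-associated protein of the DNA damage response.

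bta-miR-11988 ranked 99. Its values were 93.4, 251 and 822 in HF and 177, 318 and 1059 in LF, with LF replicate 11 the highest by 1.29-fold over HF replicate 6. Its precursor gene lies in no other annotated gene, and the nearest are FMR1, which encodes an RNA-binding regulator of translation, and FMR1NB. bta-miR-11995, at rank 150, was the steadiest of the first 12, with values of 31.9, 120 and 175 in HF and 65.4, 123 and 177 in LF. Its coefficient of variation over the 20 libraries was 32.5%, against 189% for bta-miR-11987, and LF replicate 11 (114) was in mid-range. It lies in an annotated lncRNA gene, LOC101907203.

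bta-miR-11991 (mean 45.4, rank 199) lies in OSBPL9, which encodes an oxysterol-binding lipid transfer protein. Its values were 0, 45.3 and 59.98 in HF and 35.3, 44.6 and 79.0 in LF. The 0 was in HF replicate 17, where up to 3 reads, or a normalised count of 27.6, could have been missed. The next lowest value, 26.3 in HF replicate 2, was under that limit, so this 0 does not show a level below every other library. The limit was below both group medians, and whether the level there was lower than is usual was not tested.

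bta-miR-11975 and bta-miR-11976 had the same value in every library, with 750 reads each. Both read 11.4, 28.2 and 55.2 in HF and 17.9, 32.7 and 136 in LF, the last in LF replicate 11. Their precursor genes overlap different genes, MIA3, whose product helps load large cargo such as collagen into transport vesicles, and PATZ1, a zinc finger transcription factor. Reads of these members cannot be told apart in this table, so they are 1 measurement listed under both names. Only 2 other pairs of rows with more than 10 reads had equal values throughout, bta-miR-124a with bta-miR-124b and bta-miR-129 with bta-miR-129-5p.

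The rest of the 12 had means from 10.7 to 24.1. bta-miR-11986b, in the tight junction gene OCLN, had 9.96, 20.1 and 36.6 in HF and 3.09, 24.3 and 60.7 in LF, and its lowest value was a single read in LF replicate 11. bta-miR-12008, in the Polycomb ubiquitin ligase gene RNF2, had 6.08, 13.7 and 23.0 in HF and 10.9, 18.7 and 24.3 in LF. bta-miR-11972, in BIRC6, an inhibitor of apoptosis, had 5.05, 8.42 and 27.6 in HF and 5.02, 12.1 and 68.0 in LF, with LF replicate 11 highest. These members had medians of 25.5, 18 and 10.5 reads per library. bta-miR-11994, next to TMCC1, had 3.07, 14.3 and 29.1 in HF and 0, 12.3 and 19.5 in LF, with its 0 in LF replicate 13. bta-miR-12027, in the vesicle transport gene TRAPPC9, had 3.01, 11.2 and 19.7 in HF and 1.84, 8.85 and 18.5 in LF. The groups overlapped for each of these miRNAs.

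The members counted in all 20 libraries were bta-miR-11987, bta-miR-11980, bta-miR-11988, bta-miR-11995, bta-miR-11976, bta-miR-11975, bta-miR-11986b, bta-miR-12008, bta-miR-11972 and bta-miR-12027. Their lowest read count in any library ran from 1 to 190. No member with 10 or more reads in all had over 50% of them in a single library.

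**Figure D2:**
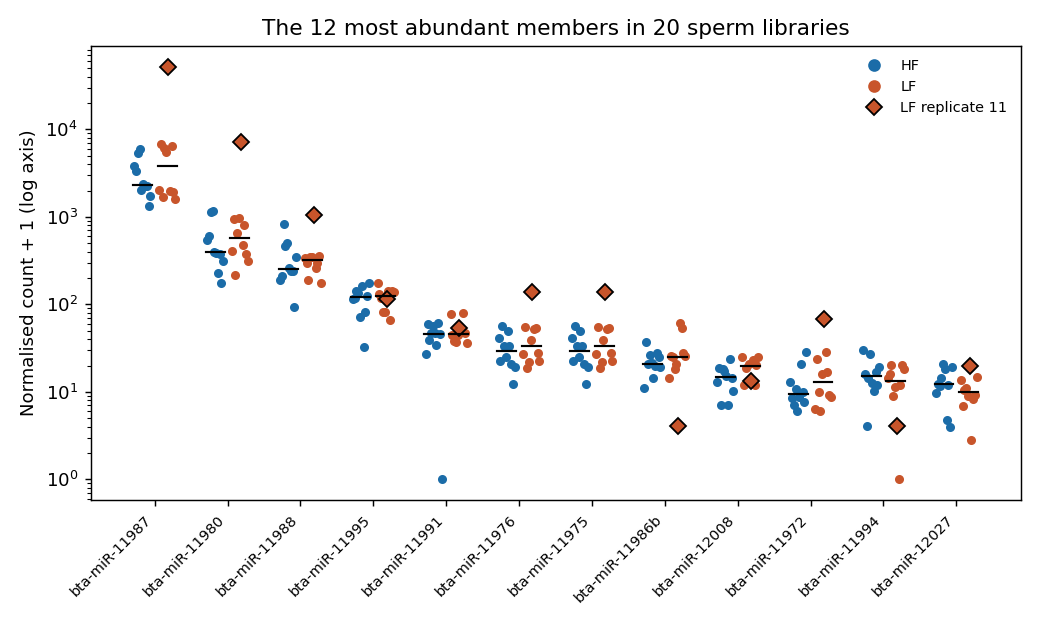
Normalised count plus 1 (log axis) of the 12 members with the highest means, in HF (blue) and LF (orange) libraries, each point a library and each bar the group median, with LF replicate 11 as a diamond. LF replicate 11 lies above all other libraries for bta-miR-11987 (52222), bta-miR-11980 (7243), bta-miR-11988, bta-miR-11976, bta-miR-11975 and bta-miR-11972, and below all others for bta-miR-11986b (3.09).

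LF replicate 11 stood apart from the other 19 libraries in these miRNAs. bta-miR-11987 held 16907 of its 310186 reads, a share of 5.45% (95% Wilson interval 5.37% to 5.53%), and was the second most abundant miRNA of the library, whereas it ranked 20 to 55 in the others. bta-miR-11980 ranked 18 there and 55 to 115 in the others. Against the median of the other libraries, bta-miR-11987 was 22.9-fold, bta-miR-11980 17.9-fold, bta-miR-11972 7.59-fold, bta-miR-11976 with its equal row 5.06-fold and bta-miR-11988 3.56-fold higher. The rise did not reach all members. bta-miR-11995 was at 0.921 of that median and bta-miR-12008 at 0.764, while bta-miR-11986b was at 0.129 and bta-miR-11994 at 0.228, each from a single read.

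LF replicate 11 was the highest library for 9 of the 22 members that passed the filter (40.9%). It was so for 29 of all 435 miRNAs that passed it (6.67%). Of the 9, bta-miR-11986c, bta-miR-12052 and bta-miR-12042 rested on 4, 2 and 1 reads there, and bta-miR-11975 and bta-miR-11976 are the same reads. HF replicate 17, the shallowest library, was the highest for 2 of the 22 (9.09%) and 76 of the 435 (17.5%). On the log2(normalised count + 1) scale, 5 members and 15 of the 435 were over 4-fold above the median of the 20 libraries in LF replicate 11. In that library 3 members and 27 of the 435 were over 4-fold below that median. Outside the members, the highest folds among miRNAs with 10 or more reads there were those of bta-miR-4657, with 10 reads, and bta-miR-2904, with 81 reads and a normalised count of 250 against 28.0.

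The sperm markers bta-miR-34b, bta-miR-34c, bta-miR-449a, bta-miR-449b and bta-miR-449c, 5 of the 6 listed, were each lower in LF replicate 11 than in every other library. bta-miR-34c, the most abundant of these, had a normalised count of 21226 there, against 25080 to 58035 in the others, and bta-miR-449a had 3552 against 5349 to 15330. bta-miR-34b had 995 against 1016 to 3473, and bta-miR-449b and bta-miR-449c rested on 15 and 3 reads. The sixth, bta-miR-100, was at 426848 (others 249855 to 614881) and made up nearly all of the summed sperm level, 452677, which ranked 8 of 20.

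Of the lists of other cell types, the summed level in this library was 43.2 for red blood cells (HF 21.7 to 100.4, other LF 20.0 to 82.7), 74.1 for white blood cells (HF 56.7 to 211, other LF 51.2 to 289), and 37.1 for muscle (HF 46.0 to 145, other LF 17.1 to 141). For epithelium it was 17693, inside the HF range (17050 to 24348) and below every other LF library (19580 to 27773). Single markers went both ways. bta-miR-223 of white blood cells was highest in LF replicate 11, at 6.18 from 2 reads against at most 5.75, bta-miR-133a of muscle was the second highest, at 21.6 from 7 reads, as was bta-miR-429 of epithelium, at 297 from 96 reads, and bta-miR-451 of red blood cells ranked 6, at 18.5. bta-miR-1 of muscle was the lowest of all libraries, at 15.4. bta-miR-144, bta-miR-142-3p, bta-miR-133b and bta-miR-206 had no read there, but their medians over the other libraries were under the value of a single read in it, so that these zeros show no difference. The part of other cells in the values of this library was not tested. The library was the second shallowest, and the part of depth in these values was not tested.

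Summed over all 97 members, the share of a library was 0.419% ± 0.211 in HF (n = 10; 0.178% to 0.820%) and 1.10% ± 1.87 in LF (n = 10; 0.246% to 6.38%). Without LF replicate 11 the LF value was 0.517% ± 0.274 (n = 9; 0.246% to 0.919%), and the ranges of the groups overlapped. bta-miR-11987 alone made up 72.0% ± 7.37 of the summed level over the 20 libraries and bta-miR-11980 11.7% ± 2.02.

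**Figure D3:**
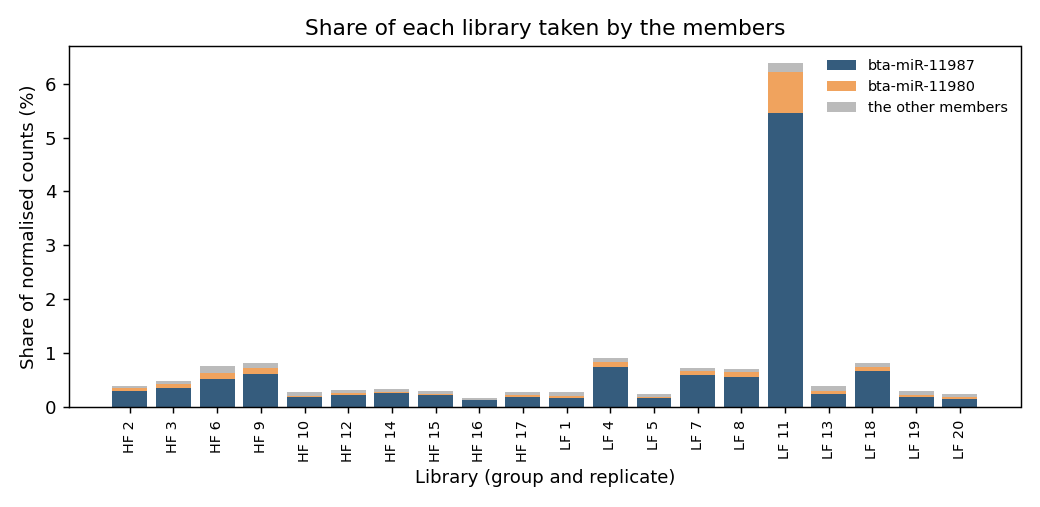
Share of each library's normalised counts (%, y axis) taken by bta-miR-11987, bta-miR-11980 and the other members, stacked, for the 10 HF and 10 LF libraries on the x axis. The bar of LF replicate 11 reaches 6.38% and every other bar is at most 0.919%.

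bta-miR-11987 and bta-miR-11980 varied together. Of the 434 other miRNAs that passed the filter, bta-miR-11980 had the pattern most like that of bta-miR-11987, with a Pearson r of 0.96 and a Spearman rho of 0.87 for log2(normalised count + 1) over the 20 libraries. bta-miR-2904 (r 0.80) and bta-miR-1777b (r 0.79) followed. Without LF replicate 11, bta-miR-11980 was again first (r 0.91, n = 19), followed by bta-miR-2328-3p (r 0.75) and bta-miR-1777b (r 0.68). Without LF replicate 4 as well, r with bta-miR-11980 was 0.90. Within HF r was 0.95 (n = 10) and within LF without replicate 11 it was 0.92 (n = 9). bta-miR-11987 exceeded bta-miR-11980 by 6.27 ± 1.56 times in HF and 6.48 ± 1.66 times in LF (n = 10 each), and in LF replicate 11 by 7.21 times, inside the range of 4.21 to 9.92 over all libraries. The precursor genes of these miRNAs lie beside different genes (ADGRB3 and BRAT1). These values share library and depth in each point, and are a description.

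Other abundant members did not follow bta-miR-11987 in the same way. In pairs picked after their values were seen, r without LF replicate 11 was 0.48 with bta-miR-11988, 0.60 with bta-miR-11975, 0.21 with bta-miR-11991, 0.11 with bta-miR-11972 and -0.19 with bta-miR-11995. For bta-miR-11972 the r over all 20 libraries was 0.54, so that it rested on LF replicate 11. bta-miR-11988 went more closely with bta-miR-1777b (r 0.94, and 0.91 without LF replicate 11) and bta-miR-1777a (r 0.91 and 0.87). With bta-miR-11980 its r was 0.77, and 0.65 without LF replicate 11. The patterns were not separate, since bta-miR-1777b was also among the miRNAs most like bta-miR-11987.

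**Figure D4:**
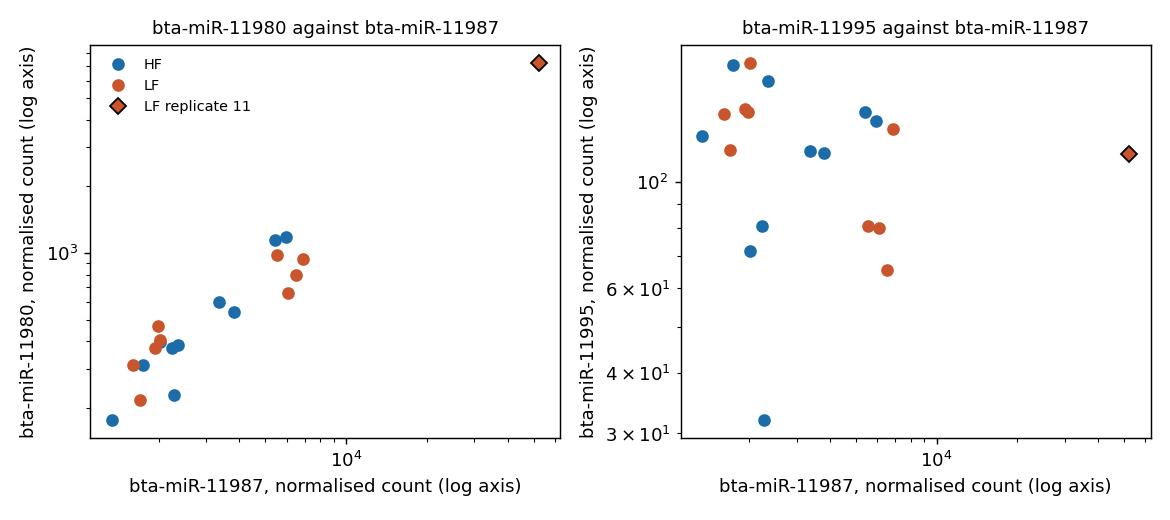
Normalised counts of bta-miR-11980 (left) and bta-miR-11995 (right) against bta-miR-11987 in each library, on log axes, with HF blue, LF orange and LF replicate 11 as a diamond. On the left the libraries lie along a line (r 0.96 on log2 values) with LF replicate 11 at its far end, and on the right they do not (r -0.11).

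High and low fertility bulls were then compared, the question for which the libraries were made. Of the 97 members, 22 passed the filter, which removed miRNAs under a normalised count of 1 in at least 10 of 20 libraries. None of the 22 was past both thresholds (limma, unadjusted p under 0.05 and fold change over 1.5), where 2.07% of all 435 miRNAs tested were, and 0 members had an unadjusted p under 0.05. The smallest adjusted p-value among them (limma, Benjamini-Hochberg) was 0.942. Fold changes are on the log2(normalised count + 1) scale, which understates those of low miRNAs.

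The smallest unadjusted p was that of bta-miR-11984, in NOM1, which acts in ribosome assembly. Its mean was 10.3 in HF and 6.85 in LF, with 7 of 10 HF libraries above the LF median. The log2 fold change was 0.64 (SE 0.39, 95% interval -0.17 to 1.45, limma p = 0.117). Its highest HF value, 18.4, was 2 reads in HF replicate 17, and its lowest LF value was 0 reads in LF replicate 11. Without LF replicate 11 its LF mean was 7.61. Next was bta-miR-12042, in the thioredoxin domain gene TXNDC11, at 0.600 and 1.54 (log2 -0.60, SE 0.38, limma p = 0.123). All 10 HF libraries lay below its LF median of 1.78, with at most 4 reads in any library. bta-miR-12056, in the phosphatase activator gene PTPA, followed at 6.91 and 10.6 (log2 -0.81, SE 0.52, limma p = 0.134). For it, 7 HF libraries lay below the LF median and 3 above. In each of these the groups overlapped, and the interval includes 0. All 3 had an adjusted p of 0.942, as had bta-miR-11987 and bta-miR-11980.

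For bta-miR-11987 the means were 3049 ± 1565 in HF and 8649 ± 15470 in LF (SD, n = 10 each), a log2 fold change of -0.62 (SE 0.47, 95% interval -1.59 to 0.36, limma p = 0.204). Without LF replicate 11 the LF mean was 3808 ± 2356 (n = 9) and the log2 fold change -0.21 (SE 0.33, 95% interval -0.90 to 0.47). For bta-miR-11980 the means were 533 ± 354 and 1240 ± 2126 and the log2 fold change -0.58 (SE 0.46, 95% interval -1.53 to 0.38, limma p = 0.225), or -0.19 without LF replicate 11. Of the HF libraries, 7 lay below the LF median and 3 above it for each of the pair. For bta-miR-11987 this rested on LF replicate 11. Without that library its LF median was 2018, below the HF median of 2316. For bta-miR-11980 the LF median without it was 471, still above the HF median of 391.

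Of the tests on recovered reads, those of edgeR gave another answer, for this pair alone. edgeR's quasi-likelihood test put 2 members past both thresholds, where 2.53% of all miRNAs were, and the likelihood ratio test the same 2, where 3.22% were. They were bta-miR-11987 (log2 -1.56 in both, unadjusted p = 0.0098 and 0.0035, adjusted p = 0.977 and 0.482) and bta-miR-11980 (log2 -1.26 and -1.27, unadjusted p = 0.029 and 0.015, adjusted p = 0.977 and 0.842), both lower in HF. Without LF replicate 11 neither test called a member, where 3.6% of 445 miRNAs were called by each, and bta-miR-11987 had a log2 fold change of -0.33. DESeq2 called 0 members with all libraries in, where 2.53% of all miRNAs were called. It had replaced the reads of LF replicate 11 for both, 16907 by 909 and 2345 by 146. limma without that library also called 0 members, where 3.15% of all miRNAs were called.

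Of the 22 members, 18 had a lower fitted mean in HF, with a median log2 fold change of -0.34, beside 217 of 435 and a median of 0.01 over all miRNAs tested. Without LF replicate 11 it was 15 of 22 with a median of -0.19, beside 242 of 445 and a median of -0.04. The members are not independent of each other, since 2 of them are the same reads and others share LF replicate 11, which was the highest library for 9 of the 22.

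**Figure D5:**
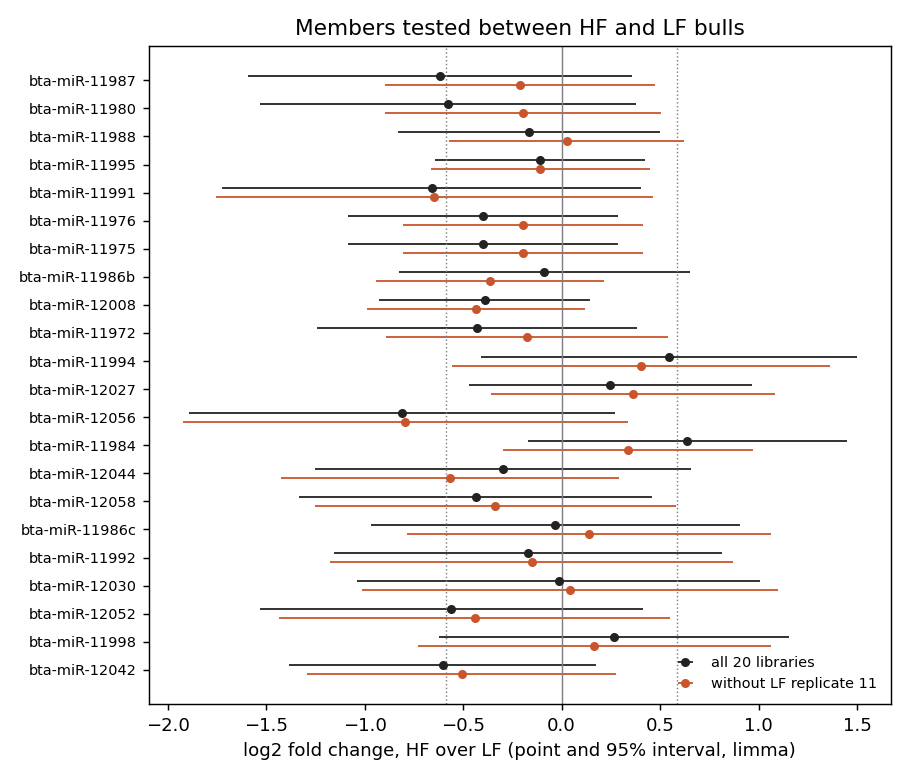
log2 fold change of HF over LF (point) with its 95% interval (line) from limma for the 22 members tested, ordered by mean level, with all 20 libraries (black) and without LF replicate 11 (orange). Dotted lines mark a fold change of 1.5, every interval includes 0, and bta-miR-11987 moves from -0.62 to -0.21.

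The places of the members in the genome were read from RefSeq. Of 97 members, 95 matched a miRNA gene of the ARS-UCD2.0 annotation, and 74 of these (77.9%) overlapped a protein-coding gene, beside 66.5% of 913 other miRNAs. The strand was not compared. The share was 73.2% for the 56 matched members that were counted and 84.6% for the 39 that were not. Both kinds thus mostly overlapped protein-coding genes, and the most abundant member did not.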

How the data were processed

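Small RNA of spermatozoa from 10 HF and 10 LF bulls was analysed, 1 library per bull, grouped by the labels. The authors trimmed reads with Cutadapt, removed other short RNA species and counted the rest on bovine miRBase miRNAs with miRDeep2 and Bowtie on ARS-UCD1.2. The values the authors deposited are a normalised signal, CPM divided by a TMM factor (edgeR). The submitters' processing notes name cutadapt 2.6, FastQC 0.11.8, R 3.4 and edgeR 3.5, and the study's methods state other versions of cutadapt, R and edgeR. The table is named as counts but holds normalised values.

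Reads were recovered by dividing each library by its commonest low value. Of the values above 0, 95.0% came out whole to within 0.01 read, and 0 members had a value that did not. Depth was 103204 to 3097581 reads. A miRNA at 3 reads had a normalised count of 1.19 to 27.6, depending on the library.

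miRNAs under 1 in at least 10 of 20 libraries were removed, leaving 435. limma (3.58.1, variance trend, R 4.3.3) was fitted on log2(value + 1), HF over LF, without covariates, with Benjamini-Hochberg adjustment. A call was an unadjusted p under 0.05 with a fold change over 1.5. edgeR (4.0.16) and DESeq2 (1.42.0) were run on recovered reads, and the tests were checked on simulated data. Other scalings, pseudocounts and filters were tried, and each library was left out. Fits without LF replicate 11 beyond limma, and the pairs correlated, were chosen after seeing the data.

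Named are the 12 members of highest mean, the 3 of smallest p, those counted in all libraries, those with over 50% of 10 or more reads in a single library (there were 0), and the 3 miRNAs most like the most abundant member. bta-miR-12030, bta-miR-11986c, bta-miR-11992 and bta-miR-12052 are named after their values were seen. The members and lists were chosen with earlier results of these data known. Bulls are the replicates, and p-values measure the spread between bulls.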

Additional observations from a re-analysis of the deposited data

Results flagged for a closer look

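Of 48 groups of 10 libraries examined with Dixon's 95% critical value (each tested member and each summary, HF and LF separately), 9 held a library whose gap to its nearest neighbour was too large a part of the range. For normally distributed values chance flags about 1 in 20 groups, or 2.4 here. Whether these normalised counts, many of them from few reads, follow that distribution was not tested, and the groups are not independent. The 2.4 is therefore no measure of chance for the 9.

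In LF, 7 of the 9 concerned LF replicate 11. Its gap was 0.896 of the range for bta-miR-11987, 0.891 for bta-miR-11980, 0.792 for bta-miR-11988, 0.698 for bta-miR-11976 and, being the same reads, 0.698 for bta-miR-11975, 0.642 for bta-miR-11972, and 0.89 for the summed share of the members. The read counts behind these were 16907, 2345, 343, 44 and 22 reads, so that the lowest of the first 3 rests on 343 reads.

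In HF, both concerned HF replicate 17, the shallowest library. bta-miR-12030, whose precursor lies in an lncRNA gene, had a normalised count of 18.4 from 2 reads there against at most 5.32 in the other HF libraries, a gap of 0.71. The library held 14 members, against 25 to 36 in the other HF libraries, a gap of 0.5.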

How the results depend on the processing

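No paired analysis was possible because HF and LF bulls share no replicate number. The members past both thresholds rose from 0 to 2 with edgeR's quasi-likelihood test and to 2 with the likelihood ratio test, in each case bta-miR-11987 and bta-miR-11980, and were 0 under DESeq2, the other scalings, pseudocounts and filters, each library left out, and both edgeR tests without LF replicate 11. A filter of at least 10 in 10 libraries left 11 members of 22. A limit of 3 reads left 34 of 57 members counted, and at the depth of the shallowest library the median number counted fell from 28 to 14.8. The summed share had a median of 0.367%, of 0.340% without LF replicate 11 and of 0.109% without bta-miR-11987.

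Of 231 fits of the 22 members under other settings, 214 kept direction and side of the threshold, 4 passed it (those of the pair above) and 13 changed sign, in 3 members with log2 fold changes near 0. bta-miR-11986c (-0.03) became 0.036 with the quasi-likelihood test, 0.037 with the likelihood ratio test and 0.035 with DESeq2, and 0.19 and 0.17 with the edgeR tests without LF replicate 11. bta-miR-12030 (-0.02) became 0.12, 0.14 and 0.16 with these tests, 0.095 with a pseudocount of 4, and 0.16 and 0.18 with the edgeR tests without LF replicate 11. bta-miR-11988 (-0.16) became 0.21 with each edgeR test without LF replicate 11. The cause was not tested.

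With a library left out, 23 of 440 fits changed sign, in 6 members. The log2 fold change ran from -0.33 to 0.026 for bta-miR-11988, from -0.20 to 0.078 for bta-miR-11995, from -0.36 to 0.073 for bta-miR-11986b, from -0.28 to 0.21 for bta-miR-11986c, from -0.38 to 0.016 for bta-miR-11992 and from -0.32 to 0.15 for bta-miR-12030.

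The scalings moved the median of all miRNAs by less than 0.1 on the log2 scale. Without the TMM factor the calls over all miRNAs were 3 higher and 7 lower in HF, against 4 and 5. Depth limits what can be said of the 28 counted members with fewer than 10 reads in all.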
